A study of Homo sapiens with 4 samples.

Results

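Proteasome genes were the rows of an RNA-sequencing table whose gene identifiers belong to PSMA, PSMB, PSMC, PSMD, PSME, PSMF and PSMG symbols, together with POMP, UCHL5 and ADRM1. The rule matched 51 of 16658 rows. Of these, 49 encode a subunit, regulator or assembly chaperone of the proteasome. The other 2, PSMC3IP and PSME3IP1, are named as partner proteins of a subunit and were not placed among the 49. PSMA8 and PSMB11, the testis and thymus forms of a subunit, were not among the rows, and neither were any of the 52 pseudogenes and 8 noncoding RNAs that match the same symbols. Reads from a near-identical pseudogene copy and from its parent gene therefore cannot be told apart in these values. The study compared wild-type (WT) HepG2 cells, a human liver cancer line, with ZCCHC4 KO1, 1 HepG2 clone in which CRISPR/Cas9 had placed frameshift mutations in ZCCHC4, the gene of an RNA-binding protein and RNA methyltransferase. Each group held 2 libraries, and every culture was untreated and grown in DMEM with serum. No source says whether the libraries of a group came from separate cultures, so p-values measure only the spread between these libraries, which may be technical, and a clone effect and a ZCCHC4 effect cannot be told apart with 1 clone.

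The proteasome degrades proteins that carry a ubiquitin chain. Its barrel-shaped core stacks outer rings of alpha subunits on inner rings of beta subunits, of which PSMB5, PSMB6 and PSMB7 carry the proteolytic sites, and a regulatory particle with a base of ATPases and a lid receives, deubiquitinates and unfolds the substrates. In cells exposed to interferon, PSMB8, PSMB9 and PSMB10 take the places of the catalytic beta subunits and form the immunoproteasome, which favours peptides for HLA class I molecules. When proteasome activity falls short, the transcription factor NFE2L1 raises many subunit genes together through antioxidant response-like letters in their promoters.

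The sequences upstream of 4 proteasome genes are shown. PSMB10 had the highest difference of all the proteasome genes, PSMD14 had the lowest, and PSMB9 is an immunoproteasome gene that was near 0. PSME2, an interferon-responsive activator gene, is shown for letters that it shares with PSMB10, and its own difference did not pass the test. Each is the 250 bases before the RefSeq start of the gene (GRCh38.p14), read 5′ to 3′ on the strand of the gene. Capitals mark matches on either strand to TGACNNNGC or TGAGNNNGC, which are antioxidant response-like letters, to CCAAT, or to GAAANNGAA, letters of the interferon-response kind. The GAAANNGAA letters were chosen after the sequences had been seen.
PSMB10, chr16:67936851-67937100, minus strand: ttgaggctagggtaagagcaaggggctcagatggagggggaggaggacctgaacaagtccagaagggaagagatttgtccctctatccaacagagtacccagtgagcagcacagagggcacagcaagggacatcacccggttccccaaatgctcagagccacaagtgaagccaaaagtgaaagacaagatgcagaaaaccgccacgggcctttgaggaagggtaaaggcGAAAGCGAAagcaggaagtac
PSME2, chr14:24146611-24146860, minus strand: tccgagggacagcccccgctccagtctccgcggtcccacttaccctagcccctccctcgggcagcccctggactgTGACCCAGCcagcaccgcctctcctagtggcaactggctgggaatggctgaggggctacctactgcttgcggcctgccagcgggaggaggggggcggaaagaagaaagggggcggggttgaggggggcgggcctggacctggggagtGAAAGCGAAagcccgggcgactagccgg
PSMB9, chr6:32853942-32854191, plus strand: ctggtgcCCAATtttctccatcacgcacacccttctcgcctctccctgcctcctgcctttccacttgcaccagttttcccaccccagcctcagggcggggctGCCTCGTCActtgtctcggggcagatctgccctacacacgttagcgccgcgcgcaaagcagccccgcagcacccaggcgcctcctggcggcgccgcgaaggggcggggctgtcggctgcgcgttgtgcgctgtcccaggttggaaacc
PSMD14, chr2:161308175-161308424, plus strand: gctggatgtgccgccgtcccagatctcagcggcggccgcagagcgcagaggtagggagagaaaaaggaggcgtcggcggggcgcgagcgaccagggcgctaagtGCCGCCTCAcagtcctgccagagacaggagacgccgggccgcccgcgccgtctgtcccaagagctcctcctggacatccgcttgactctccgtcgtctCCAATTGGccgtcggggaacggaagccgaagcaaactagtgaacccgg

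The GAAANNGAA match began 21 bases before the start of PSMB10 and 28 bases before that of PSME2. PSME2 also held TGACNNNGC letters 175 bases before its start, and PSMB9 held them 148 bases before its start. PSMD14 held TGAGNNNGC letters 146 bases before its start and a pair of overlapping CCAAT matches, 1 on each strand, 48 and 45 bases before it. Windows were present for 43 of the 49 genes, 55 windows in all, because some genes have more than 1 start. TGACNNNGC was found in 29.1% of the 55 proteasome windows, beside 11.8% of the 12918 windows of all tested genes and 10.9% of 35097 windows in all. The share for TGAGNNNGC was 20% beside 16.1% of tested windows and 14.8% of all windows, and for CCAAT it was 36.4% beside 33.1% and 32%. CCGGAAGTG, letters bound by ETS factors, stood in 5.45% beside 3.75% and 1.85%. GAAANNGAA was found in 10.9% of the proteasome windows, those of POMP, PSMA4, PSMB4, PSMB10, PSME2 and PSMG4, beside 5.31% of tested windows and 6.88% of all windows. Among these carriers only PSMB10 and PSME2 had higher estimates in ZCCHC4 KO1. The log2 fold changes of PSMG4 (-0.42), PSMA4 (-0.29), PSMB4 (-0.12) and POMP (-0.11) were on the lower side. No GAAANNGAA match stood in the windows of PSMB8, PSMB9 or PSME1, and PSME1 was at 0.28. TTCNNNGAA, heat-shock-like letters also chosen after the sequences had been seen, stood in 10.9% beside 5.27% and 6.56%. A match describes letters and is not a binding site.

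Levels were given as FPKM, fragments scaled to transcript length and to the mapped fragments of the library, so that genes can be compared per length. The summed FPKM of a library lay between 512417.0 and 565198.6, and 10191 to 10693 genes reached an FPKM of 1. Read depth is unknown from such values. ZCCHC4 had 7.22 and 5.44 FPKM in WT replicates 1 and 2 and 1.08 and 2.29 in ZCCHC4 KO1 replicates 1 and 2. Its log2 fold change was -1.48 with a standard error (SE) of 0.287 (limma adjusted p = 0.0448), and a frameshift leaves a transcript that can still be counted. The HepG2 label was checked against 17 hepatocyte markers. Of these, 10 were rows of the table, none reached an FPKM of 1 in any library, and their sum was 1.24 to 1.70 FPKM. AFP, which HepG2 cells are known to secrete, was listed at 0, 0.05, 0 and 0. KRT7, a keratin of bile duct and other simple epithelia that was looked at after the data had been seen, had 2025.95 to 3077.59 FPKM. These markers go against the HepG2 label, which is used here only as the name the study gives its cells. Summed blood cell markers (4 rows) were 3.09 and 3.92 FPKM in WT against 5.91 and 6.26 in ZCCHC4 KO1, of which HBA1 made 1.66 and 2.77 FPKM against 4.47 and 5.20, while PTPRC did not exceed 0.12 FPKM in any library. The summed fibroblast markers (6 rows) were 27.43 and 26.16 FPKM in WT against 11.2 and 14.06 in ZCCHC4 KO1, led by COL1A1 and COL3A1, while LUM was 1.86 and 1.39 FPKM against 1.81 and 3.79. The part of these cell types in the results was not tested, and in bulk RNA fewer cells of a type and less RNA per cell cannot be told apart.

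The question put to these genes was whether loss of ZCCHC4 changed the amount or the composition of the proteasome transcripts. Their total overlapped between the groups. The 49 genes summed to 5226.79 and 5603.77 FPKM in WT and to 5643.13 and 5126.84 FPKM in ZCCHC4 KO1, which was 1.02 and 1.04% of the summed FPKM in WT against 0.998 and 0.983% in ZCCHC4 KO1. The log2 ratio was -0.01 (exact permutation test, p = 1.0). With 2 libraries against 2 the smallest p that this test can give is 0.333.

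Of the 49 genes, 47 had an FPKM of at least 1 in at least 2 libraries and entered the test of 10726 genes. PSMB8 and PSMB9 did not. None of the 47 rose or fell at an adjusted p below 0.05 (limma on log2(FPKM + 1), Benjamini-Hochberg adjustment over all tested genes). Over all tested genes, 1.5% were called higher and 4.48% lower by this rule. Without ZCCHC4 KO1 replicate 2 the count was 3 higher (PSMB10, PSMD8 and PSMG3) and 6 lower (PSMA1, PSMC1, PSMC6, PSMD1, PSMD10 and PSMD14), beside 5.2% and 9.67% of all tested genes, and without any other library it was 0 and 0. The thresholds named in the study, which add a stricter false discovery rate and a minimum fold of 2, took 0 of the 47 genes and 0.0746% of all tested genes. The study, whose methods do not name its test, reports far more genes at these thresholds. The 0 therefore describes the limma fit used here and not the calls of the study.

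At an unadjusted p below 0.05, 2 proteasome genes were higher in ZCCHC4 KO1 (PSMB10 and PSMD8, 4.26%) and 7 were lower (PSMA1, PSMA7, PSMC1, PSMC2, PSMD10, PSMD14 and PSMG4, 14.9%). The background shares were 8.96% higher and 13.9% lower. Both ZCCHC4 KO1 libraries exceeded both WT libraries for 9 of the 47 genes (19.1%), beside 23.1% of all tested genes. Both lay under both WT libraries for 17 genes (36.2%), beside 28.5%. The fold changes of the 47 genes on the log2(FPKM + 1) scale ran from -0.63 for PSMD14 to 0.79 for PSMB10 with a median of -0.10, beside a median of -0.03 over all tested genes. Their tails were shorter: 5 of 47 genes (10.6%) differed by at least 0.5 and none by 1. Over all tested genes, 21.6% differed by at least 0.5 and 528 of 10726 by at least 1. The middle of the spread was similar, with quartiles of -0.28 and 0.18 beside -0.29 and 0.21 over all tested genes. The tested genes also include many with an FPKM near 1, while the 47 proteasome genes were well above it.

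**Figure D1:**
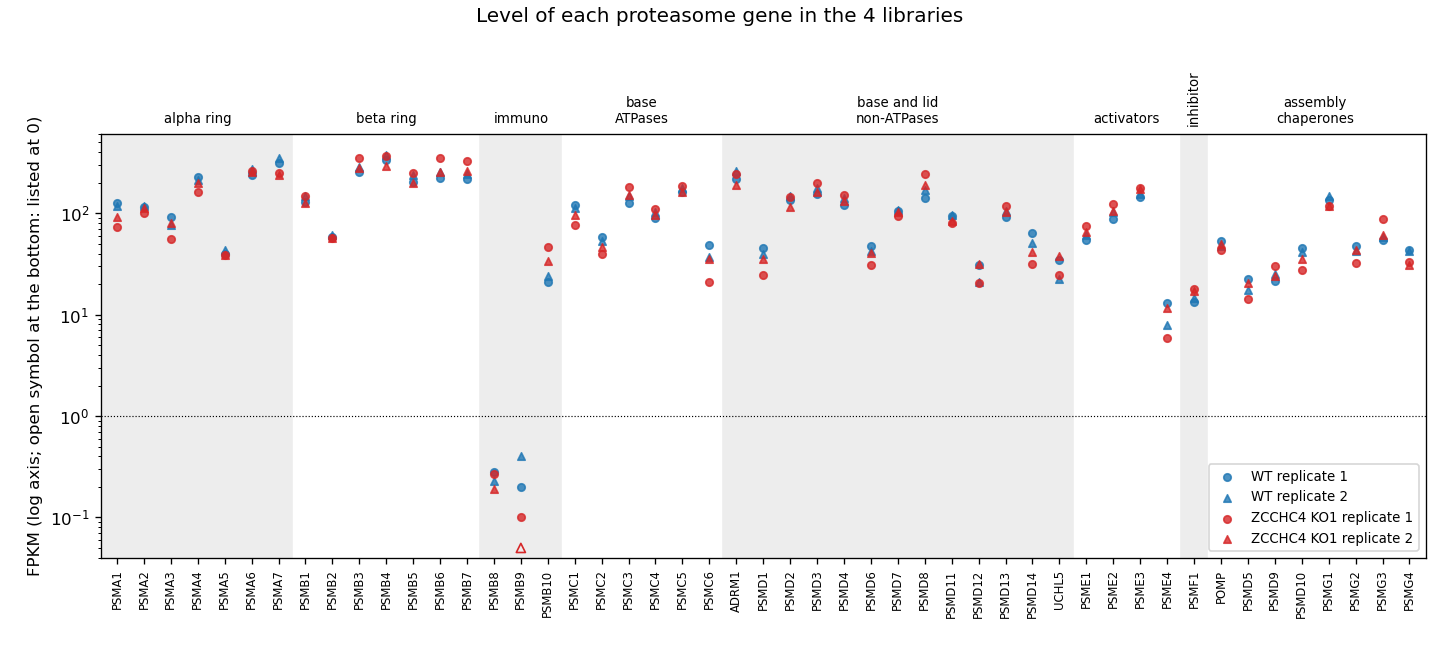
FPKM of the 49 proteasome genes on a log axis, grouped by role, with WT libraries in blue, ZCCHC4 KO1 libraries in red, circles for replicate 1 and triangles for replicate 2. The dotted line marks an FPKM of 1, and PSMB8 and PSMB9 are the only genes under it.

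**Figure D2:**
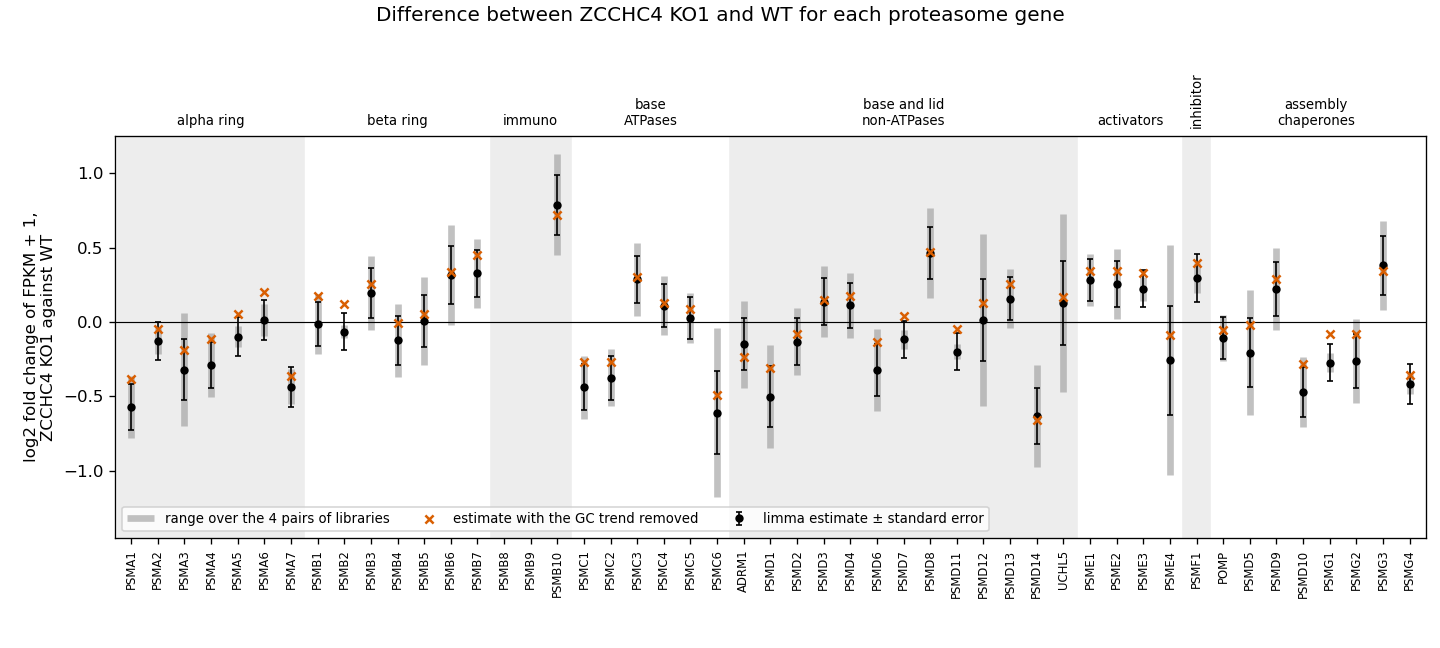
Log2 fold change of FPKM + 1 between ZCCHC4 KO1 and WT for the tested proteasome genes (black, with the limma standard error), the range over the 4 pairs of libraries (grey) and the estimate after removal of the trend with GC content (orange). PSMB10 is the highest at 0.79 and PSMD14 the lowest at -0.63, and PSMB8 and PSMB9 were not tested.

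The alpha ring, which gates entry to the core, was mostly on the lower side. All 7 genes were tested, and 6 had lower estimates in ZCCHC4 KO1, of which PSMA1, PSMA2, PSMA4, PSMA5 and PSMA7 had both ZCCHC4 KO1 libraries under both WT libraries, a pattern that 28.5% of all tested genes also had. None passed the test. PSMA1, the gene with the lowest difference of the ring, had 126.43 and 118.65 FPKM in WT and 73.29 and 92.05 FPKM in ZCCHC4 KO1. Its groups did not overlap, and the log2 fold change was -0.57 (SE 0.155, limma adjusted p = 0.0974). PSMA7, the most abundant alpha transcript, had 312.49 and 347.90 FPKM in WT and 250.72 and 237.20 FPKM in ZCCHC4 KO1. These libraries again did not overlap, with a log2 fold change of -0.43 (SE 0.135, limma adjusted p = 0.130). PSMA6 had the highest difference of the ring, with 239.82 and 272.34 FPKM in WT and 261.35 and 255.74 FPKM in ZCCHC4 KO1. Its groups overlapped, and the log2 fold change was 0.02 (SE 0.135, limma adjusted p = 0.963). The other 4 genes lay between -0.32 (PSMA3) and -0.10 (PSMA5). The summed alpha ring was 1153.7 and 1187.6 FPKM in WT and 942.54 and 1015.94 FPKM in ZCCHC4 KO1. This sum did not overlap between the groups and had a log2 ratio of -0.26 (exact permutation test, p = 0.333), which was -0.12 after removal of a trend with the GC content of transcripts.

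The beta ring of the constitutive core had estimates on both sides, and its difference from the alpha ring was not tested. Of its 7 genes, 4 had higher and 3 had lower estimates, and the summed level was 1428.29 and 1615.49 FPKM in WT and 1845.76 and 1466.41 FPKM in ZCCHC4 KO1. The sums overlapped, with a log2 ratio of 0.12 (exact permutation test, p = 0.667). Without ZCCHC4 KO1 replicate 1 the ratio was -0.05, without replicate 2 it was 0.28, and without WT replicate 1 it was 0.03. PSMB5, the chymotrypsin-like subunit, had 204.35 and 240.78 FPKM in WT and 251.87 and 196.95 FPKM in ZCCHC4 KO1. Both ZCCHC4 KO1 values stood outside the WT pair, 1 on each side, and the log2 fold change was 0.01 (SE 0.175, limma adjusted p = 0.989). PSMB6, the caspase-like subunit, had 221.59 and 257.28 FPKM in WT and 348.63 and 253.94 FPKM in ZCCHC4 KO1. Only replicate 1 of ZCCHC4 KO1 stood above WT, and the log2 fold change was 0.32 (SE 0.193, limma adjusted p = 0.401), or 0.09 without that library and 0.54 without replicate 2. PSMB7, the trypsin-like subunit, had 220.31 and 243.39 FPKM in WT and 324.64 and 260.23 FPKM in ZCCHC4 KO1. It was the highest difference of the ring and its groups did not overlap, with a log2 fold change of 0.33 (SE 0.161, limma adjusted p = 0.300). PSMB4, the most abundant proteasome transcript by mean FPKM and the lowest difference of the ring, had 336.76 and 375.86 FPKM in WT and 365.90 and 291.45 FPKM in ZCCHC4 KO1. Its log2 fold change was -0.12 (SE 0.166, limma adjusted p = 0.724) and the groups overlapped. PSMB1, PSMB2 and PSMB3 lay between -0.07 and 0.20.

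The immunoproteasome genes split into 1 expressed gene and 2 near 0. PSMB8 had 0.28 and 0.23 FPKM in WT and 0.27 and 0.19 FPKM in ZCCHC4 KO1, and PSMB9 had 0.20 and 0.40 FPKM in WT and 0.10 and 0 FPKM in ZCCHC4 KO1. Both were under the filter in all 4 libraries, so no fold change is given. PSMB10, which replaces PSMB7, had 20.91 and 24.31 FPKM in WT and 46.95 and 33.53 FPKM in ZCCHC4 KO1. The means were 22.6 ± 2.40 and 40.2 ± 9.49 FPKM (SD, n = 2 libraries each), a ratio of 1.78. Both ZCCHC4 KO1 libraries stood above both WT libraries, and the 4 pairs of libraries gave log2 differences from 0.45 to 1.13. The log2 fold change was 0.79 with an SE of 0.202, and the gene missed the threshold (limma adjusted p = 0.0861). It was past the threshold after removal of the GC trend, at 0.72 with an SE of 0.113 (limma adjusted p = 0.00552), and after median-ratio scaling, at 0.86 (limma adjusted p = 0.0158). Over all alternatives its log2 fold change lay between 0.55 and 1.03, and its limma adjusted p between 3.446e-13, with replicate numbers crossed after seeing the data, and 0.366, without WT replicate 1. Without ZCCHC4 KO1 replicate 2 it was called, at 1.03 (limma adjusted p = 0.00548).

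Set against its constitutive counterpart within a library, PSMB10 was 9.49 and 9.99% of PSMB7 in WT against 14.5 and 12.9% in ZCCHC4 KO1. The ratios did not overlap, with a log2 difference of 0.49 (exact permutation test, p = 0.333). After removal of the GC trend this difference was 0.29. PSMB8 stood at 0.137 and 0.0955% of PSMB5 in WT against 0.107 and 0.0965% in ZCCHC4 KO1, with overlapping groups and a log2 difference of -0.17 (exact permutation test, p = 1.0) that turned to 0.09 without WT replicate 1. PSMB9 was 0.0903 and 0.156% of PSMB6 in WT, 0.0287% in ZCCHC4 KO1 replicate 1, and listed at 0 in replicate 2.

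The ATPases of the base form the ring that unfolds substrates. Of the 6, 3 had higher and 3 lower estimates, and none passed the test. The sums were 604.68 and 630.8 FPKM in WT and 615.49 and 588.24 FPKM in ZCCHC4 KO1, with a log2 ratio of -0.04 (exact permutation test, p = 0.667) that turned to 0.03 with median-ratio scaling and with the GC trend removed. PSMC6, the lowest of the 6, had 48.23 and 36.86 FPKM in WT and 20.81 and 35.80 FPKM in ZCCHC4 KO1. Replicate 2 of each group nearly met, and the log2 fold change was -0.61 (SE 0.281, limma adjusted p = 0.273), or -0.23 without ZCCHC4 KO1 replicate 1 and -0.99 without replicate 2. PSMC3, the highest, had 126.04 and 148.55 FPKM in WT and 182.74 and 153.09 FPKM in ZCCHC4 KO1, a log2 fold change of 0.29 (SE 0.157, limma adjusted p = 0.349) without overlap. PSMC5, the most abundant, had 160.77 and 178.05 FPKM in WT and 184.29 and 161.23 FPKM in ZCCHC4 KO1, a log2 fold change of 0.03 (SE 0.140, limma adjusted p = 0.940). PSMC1 and PSMC2 were also without overlap on the lower side, at -0.44 and -0.37, and PSMC4 overlapped at 0.11. Subunits that assemble into 1 ring had estimates of both signs, but those of PSMC4 and PSMC5 were within 1 SE of 0. The 3 lower genes had transcripts of 39.0 to 46.3% GC, and the 3 higher genes 52.1 to 55.4%. With the GC trend removed, the lower genes were at -0.49 to -0.27 and the higher genes at 0.09 to 0.30. A difference between subunits of the ring was not tested.

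The 13 non-ATPase genes of the base and lid held both a high and a low extreme. Their sums were 1283.63 and 1377.67 FPKM in WT and 1404.78 and 1267.95 FPKM in ZCCHC4 KO1, with a log2 ratio of 0.01 (exact permutation test, p = 1.0), and 6 estimates were higher and 7 lower. PSMD14, the metalloprotease that removes ubiquitin chains at the lid, had 63.58 and 51.19 FPKM in WT and 31.93 and 41.68 FPKM in ZCCHC4 KO1. The groups did not overlap, and the log2 fold change of -0.63 was the lowest of all 47 genes (SE 0.190, limma adjusted p = 0.121). Against PSMD7, with which it pairs in the lid, PSMD14 was at 59.8 and 47.7% in WT against 33.8 and 40.7% in ZCCHC4 KO1. The log2 difference of that ratio was -0.53 (exact permutation test, p = 0.333). PSMD8, a lid subunit, had 141.51 and 168.41 FPKM in WT and 241.77 and 188.86 FPKM in ZCCHC4 KO1. It was the highest of the 13 and did not overlap, at a log2 fold change of 0.47 (SE 0.176, limma adjusted p = 0.192). ADRM1, the ubiquitin receptor with the most abundant transcript of this group, had 218.90 and 258.77 FPKM in WT and 241.93 and 190.41 FPKM in ZCCHC4 KO1. Its groups overlapped at a log2 fold change of -0.15 (SE 0.174, limma adjusted p = 0.679). The deubiquitinase UCHL5, which ADRM1 binds, had 34.39 and 22.46 FPKM in WT and 24.54 and 37.74 FPKM in ZCCHC4 KO1, so its replicates differed more than its groups, and the log2 fold change was 0.13 (SE 0.282, limma adjusted p = 0.840).

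The activators that cap the core in place of the regulatory particle, and the inhibitor PSMF1, were mostly on the higher side, and none passed the test. Groups apart on the higher side, as for PSME1, PSME2, PSME3 and PSMF1, were also found for 23.1% of all tested genes. PSME1 and PSME2 form 1 mixed ring, and their transcripts kept near the same ratio in each library, with PSME1 at 62.2 and 58.7% of PSME2 in WT against 60.8 and 62.4% in ZCCHC4 KO1. PSME1, the highest activator, had 54.26 and 60.77 FPKM in WT and 74.98 and 65.57 FPKM in ZCCHC4 KO1, without overlap, at a log2 fold change of 0.28 (SE 0.142, limma adjusted p = 0.307). PSME2 had 87.29 and 103.62 FPKM in WT and 123.33 and 105.08 FPKM in ZCCHC4 KO1, without overlap, at 0.26 (SE 0.155, limma adjusted p = 0.396). PSME3, the nuclear activator and the most abundant of the 4, had 144.28 and 156.58 FPKM in WT and 178.36 and 173.15 FPKM in ZCCHC4 KO1. Its groups were apart at 0.22 (SE 0.126, limma adjusted p = 0.360). PSME4, the large activator, had 13.08 and 7.86 FPKM in WT and 5.90 and 11.66 FPKM in ZCCHC4 KO1. The groups overlapped at -0.26 (SE 0.367, limma adjusted p = 0.741), and this SE was the largest of the 47 genes. The 4 activators summed to 298.91 and 328.83 FPKM in WT and 382.57 and 355.46 FPKM in ZCCHC4 KO1, without overlap, at a log2 ratio of 0.23 (exact permutation test, p = 0.333). PSMF1 had 13.40 and 14.76 FPKM in WT and 17.99 and 17.01 FPKM in ZCCHC4 KO1, also without overlap, at 0.30 (SE 0.159, limma adjusted p = 0.340).

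Assembly chaperones bring the rings together and leave the finished particle. Of the 8, 6 had lower and 2 higher estimates, none past the test, and their sums were 422.79 and 423.68 FPKM in WT and 386.68 and 382.11 FPKM in ZCCHC4 KO1. The sums did not overlap, at a log2 ratio of -0.14 (exact permutation test, p = 0.333), which was -0.07 with median-ratio scaling and -0.03 with the GC trend removed. PSMD10, a chaperone of the base also known as gankyrin, had 45.31 and 41.94 FPKM in WT and 27.41 and 35.48 FPKM in ZCCHC4 KO1, the lowest of the group at -0.47 (SE 0.170, limma adjusted p = 0.177). PSMG1, the most abundant chaperone transcript, had 135.16 and 147.59 FPKM in WT and 116.73 and 116.71 FPKM in ZCCHC4 KO1, at -0.27 (SE 0.125, limma adjusted p = 0.270). Both were without overlap on the lower side, a pattern that 28.5% of all tested genes also had. PSMG3 and PSMG4 encode the partners of 1 heterodimer that helps the alpha ring to form, and their estimates had opposite signs. PSMG3 had 54.81 and 57.90 FPKM in WT and 88.44 and 61.33 FPKM in ZCCHC4 KO1, at 0.38 (SE 0.197, limma adjusted p = 0.321), or 0.12 without ZCCHC4 KO1 replicate 1 and 0.64 without replicate 2. PSMG4 had 43.27 and 42.71 FPKM in WT and 33.33 and 30.63 FPKM in ZCCHC4 KO1, at -0.42 (SE 0.134, limma adjusted p = 0.139). PSMG3 was 127 and 136% of PSMG4 in WT against 265 and 200% in ZCCHC4 KO1, without overlap, a log2 difference of 0.81 (exact permutation test, p = 0.333). This ratio, like those of PSMD14 to PSMD7, PSME1 to PSME2 and PSMG1 to PSMG2, was chosen after the values had been seen. The partner pair PSMG1 and PSMG2 gave 283 and 344% in WT against 360 and 268% in ZCCHC4 KO1, which overlapped. POMP, which guides the beta subunits into place, differed by -0.11 with overlapping groups.

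Differences between the replicates of 1 group followed the GC content of the transcripts, and in opposite directions in the groups. Over the 47 tested proteasome genes, whose transcripts had 36.0 to 64.1% GC, the Spearman correlation of GC content with WT replicate 2 minus replicate 1 was 0.788, and with ZCCHC4 KO1 replicate 2 minus replicate 1 it was -0.859. Over 10559 tested genes the correlations were 0.731 and -0.791. All genes share the same pair of libraries in each of these correlations, which are descriptions only. Low-GC genes such as PSMD12, UCHL5 and PSME4 were high in WT replicate 1 and in ZCCHC4 KO1 replicate 2, and GC-rich genes such as PSMB6, PSMG3 and PSMD8 were high in ZCCHC4 KO1 replicate 1. The difference between the groups followed GC content less closely, at 0.568 over the 47 genes and 0.186 over all. PSMB10 (62.5% GC) was the highest and PSMD14 (36.0% GC) the lowest, while ADRM1, the most GC-rich at 64.1%, was at -0.15.

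With a smooth GC trend removed from each library, PSMB10, PSMD8, PSME1 and PSMF1 passed an adjusted p below 0.05 as higher, and PSMA1, PSMA7, PSMC6, PSMD1, PSMD14 and PSMG4 as lower (limma). That was 4 and 6 of the 47 genes, beside 13.7% and 14.2% of all genes tested that way. PSMD8 was then at 0.47, PSMD14 at -0.66, PSMG4 at -0.36, PSMA1 at -0.38 and PSMA7 at -0.36. The median of the 47 genes moved to 0.05, beside 0.05 over all genes.

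Some of these genes had differences close to those of the genes around them on the chromosome. For each gene the median log2 fold change of the 20 nearest tested genes was taken, and over the 49 genes it ran from -0.64 to 0.33. The lowest median was that of PSMD14 on chromosome 2 (161308425 to 161411717, GRCh38.p14), where 17 of 20 neighbours were lower and the gene itself was at -0.63. PSMA7 (62136733 to 62143394) and ADRM1 (62302896 to 62308862) lie near each other on chromosome 20 and had neighbour medians of -0.35 and -0.36, with 16 of 20 lower for each. Their neighbours can be the same genes. PSMA7 itself was at -0.43, while ADRM1 at -0.15 was not close to its neighbours. Over all tested genes, 5708 of 10726 had lower estimates. For PSMG1 on chromosome 21 the median was -0.40 and for PSMD10 on chromosome X it was -0.32. The highest median, 0.33, was that of PSMG3 on chromosome 7, where 16 of 20 neighbours were higher. PSMB10 on chromosome 16 (67934506 to 67936850) had neighbours with a median of 0.09, and PSMA1 on chromosome 11 had neighbours with a median of -0.03, both far from the gene's own difference. The part of a chromosomal gain or loss in the clone was not tested.

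Other genes of the ubiquitin-proteasome pathway gave the same count as the proteasome itself. Of a list of 49, 47 were tested, and 0 were higher and 0 lower at an adjusted p below 0.05 (limma). Without ZCCHC4 KO1 replicate 2 the counts were 3 and 5, beside 5.2% and 9.67% of all tested genes. Without its replicate 1 they were 0 and 2, beside 1.24% and 4.21%. At an unadjusted p below 0.05, 2 were higher and 8 lower, beside 8.96% and 13.9%, and the median log2 fold change was -0.17, beside -0.03 over all tested genes. NFE2L1, the activator of subunit genes, had 65.65 and 67.11 FPKM in WT and 51.18 and 50.46 FPKM in ZCCHC4 KO1. Its groups did not overlap, and the log2 fold change was -0.38 (SE 0.123, limma adjusted p = 0.143). The nearest to the threshold, picked after the values had been seen, was UBA1, the main ubiquitin-activating enzyme, with 239.12 and 268.68 FPKM in WT and 167.83 and 143.21 FPKM in ZCCHC4 KO1, at -0.71 (SE 0.147, limma adjusted p = 0.0531). SEM1, a small lid subunit that the symbol rule does not reach, had 72.21 and 67.11 FPKM in WT and 48.6 and 51.51 FPKM in ZCCHC4 KO1, at -0.47 (SE 0.129, limma adjusted p = 0.0988).

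Of 15 genes that work with the immunoproteasome in antigen presentation, 14 were tested, with 1 higher and 0 lower at an adjusted p below 0.05, beside 1.5% and 4.48% of all tested genes. HLA-C, a class I heavy chain, rose from 23.49 and 25.40 FPKM in WT to 51.96 and 44.76 FPKM in ZCCHC4 KO1. The log2 fold change was 0.95 (SE 0.148, limma adjusted p = 0.0257), and reads of HLA genes can be split among near-identical copies. No gene of this list was called higher without WT replicate 1 or without a filter on low values, and 3 were called without ZCCHC4 KO1 replicate 2, beside 5.2% of all tested genes. At an unadjusted p below 0.05, 4 were higher and 3 lower, beside 8.96% and 13.9%. The median of the 14 was 0.08, beside -0.03 over all tested genes. TAP1, TAP2 and NLRC5, which often accompany the immunoproteasome genes, were at 0.05, 0.21 and 0.11, and the interferon factor IRF1 at 0.65, none of them past the test.

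The 2 rows that match the symbols but were not placed among the proteasome genes were not counted above. PSMC3IP, a recombination factor, had 25.75 and 23.17 FPKM in WT and 12.83 and 17.15 FPKM in ZCCHC4 KO1, at -0.68 (SE 0.191, limma adjusted p = 0.103). PSME3IP1, which binds PSME3, had 27.14 and 27.15 FPKM in WT and 22.10 and 24.66 FPKM in ZCCHC4 KO1, at -0.21 (SE 0.145, limma adjusted p = 0.463).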

How the data were processed

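RNA of 2 WT and 2 ZCCHC4 KO1 libraries of cells labelled HepG2 was sequenced. Per the study's methods the authors aligned reads to GRCh38 with Bowtie2 and obtained the deposited FPKM values, rounded to 2 decimals, with RSEM, and tool versions, gene annotation and filters are not given in the sources used here. The sequencer is named differently by the labels and the methods. FPKM keeps no read depth, so no counting error is given. Gene identifiers were matched to RefSeq (GRCh38.p14) symbols for 16384 of 16658 rows. Genes with FPKM of at least 1 in at least 2 libraries were fitted on log2(FPKM + 1), so that changes of low genes are understated. The fit used limma 3.58.1 (lmFit, eBayes with a trend) in R 4.3.3 and Benjamini-Hochberg adjustment over all 10726 genes. The procedure was tested on simulated data, where it recovered most large changes but none of the smallest simulated size. That size exceeded every estimate of the proteasome genes. The simulated noise was independent between genes and libraries, unlike the replicate differences of these data. It therefore does not set the smallest change that can be called here, and HLA-C, a smaller change at 0.95, was called. A missed threshold does not show the absence of a change. Sums and ratios were compared with two-sided exact permutation tests (scipy 1.17.1). GC content came from GENCODE release 44 transcripts and was known for 98.4% of tested genes, and its trend was a natural spline with 4 degrees of freedom per library.

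Members, roles and lists were chosen with earlier results of these data known. Values in every library were given for genes with an adjusted p below 0.05, for PSMB5 to PSMB10, and for the highest and lowest change and highest level of each role; PSMC1, PSME2, PSMG4, UCHL5, UBA1, SEM1 and other genes named were added after their values were seen. Replicate numbers did not pair the libraries: the replicate differences of the groups had a Pearson correlation of -0.787 over all tested genes. Alternatives were another pseudocount, filter, scaling and variance prior, replicate blocks, GC trend removal and leaving out each library.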

Additional observations from a re-analysis of the deposited data

How the results depend on the processing

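The count of proteasome genes past the threshold, 0 higher and 0 lower, stayed at 0 and 0 with a pseudocount of 0.1, no filter, an FPKM minimum of 5, eBayes without a trend and the thresholds of the study. With the replicate number as a block, which the data do not pair, it was also 0 and 0. With crossed numbers, chosen after seeing the data because the correlation was negative, it was 10 higher and 14 lower, beside 21.5% and 27.8% of all genes, in a fit that gave every gene the trend's variance. GC trend removal gave 4 and 6, quantile normalization 2 and 2, and median-ratio scaling 1 higher (PSMB10). Leaving out 1 library gave 0 to 3 higher and 0 to 6 lower, and all these calls came without ZCCHC4 KO1 replicate 2 (PSMB10, PSMD8 and PSMG3 higher, PSMA1, PSMC1, PSMC6, PSMD1, PSMD10 and PSMD14 lower), where the lone library is assumed to vary like the others.

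GC trend removal moved the median of the tested genes to 0.0514, and the summed log2 ratios to -0.12 for the alpha ring, 0.027 for the base ATPases, 0.33 for the activators, 0.42 for the inhibitor, -0.0296 for the chaperones and 0.29 for PSMB10 against PSMB7. Median-ratio scaling moved the alpha ring to -0.19, the base ATPases to 0.0321 and the chaperones to -0.0692, and quantile normalization moved the inhibitor to 0.40. For the ubiquitin-proteasome list, the higher and lower counts were 2 and 5 (quantile), 7 and 16 (crossed block), 3 and 7 (GC), 0 and 1 (median-ratio), 0 and 2 (FPKM minimum of 5), and 0 to 3 and 0 to 5 (1 library left out). For the antigen presentation list, the count higher was 0 without a filter and with a fold minimum of 2, 2 with an FPKM minimum of 5, 3 with either the median-ratio or the quantile method, 4 with the crossed block and with GC trend removal, and 0 to 3 with 1 library left out. The count lower was 1 (quantile), 5 (crossed block) and 2 (GC). The alternatives for both lists were added after seeing the data. The causes were not tested.

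For the 21 tested proteasome genes that the naming rule chose, 227 values under the alternatives kept direction and side of the threshold, 35 passed it newly and 11 changed sign. Other genes named in the text were not followed through the alternatives. Signs changed when 1 library was left out for ADRM1 (-0.3204 to 0.0235), PSMA6 (-0.0748 to 0.1079), PSMB4 (-0.2868 to 0.0404), PSMB5 (-0.17 to 0.18), PSMC5 (-0.0691 to 0.1226) and PSME4 (-0.69 to 0.18). Under quantile normalization PSMA6 was -0.0207 and PSMB5 -0.0036. Read depth, which FPKM does not give, limits what can be said of PSMB8 and PSMB9.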
